A study of Mus musculus with 2 samples.

Results

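Arg1 and 9 other genes of macrophage activation were followed in single cells of mouse pancreatic tumors: Arg1, Nos2, Mrc1, Chil3, Retnla, Cd163, Il10, Il4ra, Mgl2 and Folr2. They were chosen by name, as the 10 of 32285 genes of the count matrix that carry these symbols. The choice was made with earlier results of these data known. Each gene was followed over macrophage subclusters, Ly6c2 monocytes, dendritic cells and other named cell classes of the tumors. All 10 had at least 50 unique molecular identifiers (UMIs, one for each captured RNA molecule) in macrophages and monocytes, the minimum set here for a ratio.

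Both libraries were made from orthotopic tumors of male mice, grown from the murine pancreatic cancer line KPC. The mice were 5 to 7 weeks old. The iIRE library held cells of tumors treated at 7 to 9 mm by insufficient irreversible electroporation and taken on day 3 after it. The current was delivered through needles 5 mm apart in 99 pulses of 1000 V and 100 µs at 1 Hz. The control library held cells of tumors without this treatment, recorded with the same size and day. They are described as untreated in one place and as needles without pulses in another. Each group was 1 library made with 5′ chemistry, and how many mice went into a library is not given in the sources used here, so that the treatment and the library cannot be told apart and no test between groups was possible. As a model the tumors are limited to 1 cell line placed in the pancreas.

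Macrophages change their gene programs with the signals they meet. Interleukin 4 and interleukin 13, acting through a receptor that contains the Il4ra chain and through the factor Stat6, are known to induce Arg1, Chil3, Retnla, Mrc1 and Mgl2 in mouse macrophages, whereas interferon gamma and bacterial products induce Nos2. Arginase 1 turns arginine into ornithine and urea and inducible nitric oxide synthase turns it into nitric oxide, so both enzymes draw on the same amino acid. Cd163 and Folr2 are surface markers of resident macrophages, and Il10 encodes a cytokine that dampens inflammation.

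The promoters of Retnla, Chil3 and Mrc1 are shown as those of 3 known interleukin 4 targets. Chil3 and Mrc1 were highest in different subclusters, and Retnla was too sparse to place. The sequences are from RefSeq on the build GRCm38.p6 and run from 250 bases before to 50 bases after the annotated start, written 5′ to 3′ on the strand of the gene, with the motif matches described after them in capitals. The window of Retnla is chr16:48842359-48842658 on the plus strand, that of Chil3 is chr3:106167515-106167814 on the minus strand, and that of Mrc1 is chr2:14229164-14229463 on the plus strand.
Retnla: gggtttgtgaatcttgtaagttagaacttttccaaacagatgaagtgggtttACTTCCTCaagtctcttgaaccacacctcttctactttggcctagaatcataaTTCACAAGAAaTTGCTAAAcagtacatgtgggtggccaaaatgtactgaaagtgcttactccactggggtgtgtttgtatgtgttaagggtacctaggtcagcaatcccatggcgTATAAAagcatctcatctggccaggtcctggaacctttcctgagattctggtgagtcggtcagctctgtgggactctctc
Chil3: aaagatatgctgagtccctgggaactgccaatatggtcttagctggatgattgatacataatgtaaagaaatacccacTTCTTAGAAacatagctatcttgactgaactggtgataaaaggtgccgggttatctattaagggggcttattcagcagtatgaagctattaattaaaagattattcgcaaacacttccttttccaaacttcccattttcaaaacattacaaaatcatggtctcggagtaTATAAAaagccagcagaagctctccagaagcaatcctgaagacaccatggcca
Mrc1: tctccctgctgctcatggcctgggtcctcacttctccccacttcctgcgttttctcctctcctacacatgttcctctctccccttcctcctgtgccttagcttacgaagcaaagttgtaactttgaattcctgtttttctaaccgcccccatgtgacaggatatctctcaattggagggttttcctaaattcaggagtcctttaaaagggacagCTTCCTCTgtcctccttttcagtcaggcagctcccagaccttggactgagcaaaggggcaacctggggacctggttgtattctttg

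In the Retnla window the capitals mark, in order, an ETS-type match on the minus strand (GAGGAAGT, in 3.2% of all 32851 promoters of this length), a STAT6-type match (TTCNNNNGAA, 6.95%), a C/EBP-type match (TTGCNNAA, 10.8%) and a TATA box (TATAAA, 13.6%). In the Chil3 window they mark a STAT-type match with a shorter gap (TTCNNNGAA, 8.3%) and a match of TATAAA. The TATAAA match begins at -3 from the annotated start in the Chil3 window and at -30 in the Retnla window. In the Mrc1 window they mark an ETS-type match of a second form on the minus strand (AGAGGAAG, 4.55%), and neither STAT motif nor a TATA box was matched. Both strands were searched for 10 motifs over the 8 windows of the 7 members that had one. The other motifs were ACGTG (19.6%), TGCTGANNNNGCA (0.387%), TGANTCA (7.81%) and GGGANNNNCC (20.7%). The 2 ETS forms can overlap each other, and the windows of Mrc1 and Chil3 each held 1 match of GGGANNNNCC, which is not capitalized. A match is only a run of letters and does not show that a factor binds there.

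On the build GRCm38, in the GENCODE annotation, the 10 members are protein-coding genes. Arg1 spans chr10:24915221-24927484 on the minus strand and Nos2 chr11:78920787-78960254 on the plus strand. Mrc1 spans chr2:14229392-14332057 and contains Mir511 on the same strand. Il4ra overlaps 1 annotated gene on the opposite strand and Folr2 overlaps 2, and the other 7 members overlap none.

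After filtering, 15991 cells of the iIRE library and 15274 cells of the control library remained, with a median of 6455 and 7946.5 UMIs per cell. Clusters were named from marker genes that include no member, and 71.6% of iIRE cells and 67.4% of control cells lay in clusters that met no naming rule. Member levels in these unnamed cells are not given here. The cancer-like cells made up 11.4% of iIRE and 8.57% of control cells. The class of macrophages and monocytes, led by C1q, Csf1r and Lyz2, held 940 iIRE cells with 5949431 UMIs and 969 control cells with 6879726 UMIs. It split into 11 subclusters, of which 5 could be named (C1q-like, Lyve1-like, Gpnmb-like, dividing and Ly6c2 monocyte-like) and 6 are called by their leading genes. The members were left out of the genes used for clustering. A dendritic-like cluster held 54 iIRE and 136 control cells. The libraries shared 458 barcode sequences. Names rebuilt in this way need not match those of the study.

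Levels are given as CPM, the UMIs of a gene in 1000000 UMIs of the summed cells, and they are compared between cell populations for 1 gene and never between genes. A gene was called higher or lower in the iIRE library from a 1.2-fold ratio on, as log2 of both CPM values with 10 CPM added, and every interval is an exact 95% interval for counting error alone. In the whole class, 1 of 10 members was higher in the iIRE library, Folr2, against 7.38% of the 9741 genes with enough UMIs. Arg1, Retnla and Mgl2 were lower, against 4% of those genes. The median log2 ratio was -0.09 over the members and 0.03 over all genes. With a single library in each group these calls describe 2 libraries. Counts of subclusters past 1.2-fold are given without the share of all genes in each subcluster. They cannot be read against a baseline.

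**Figure D1:**
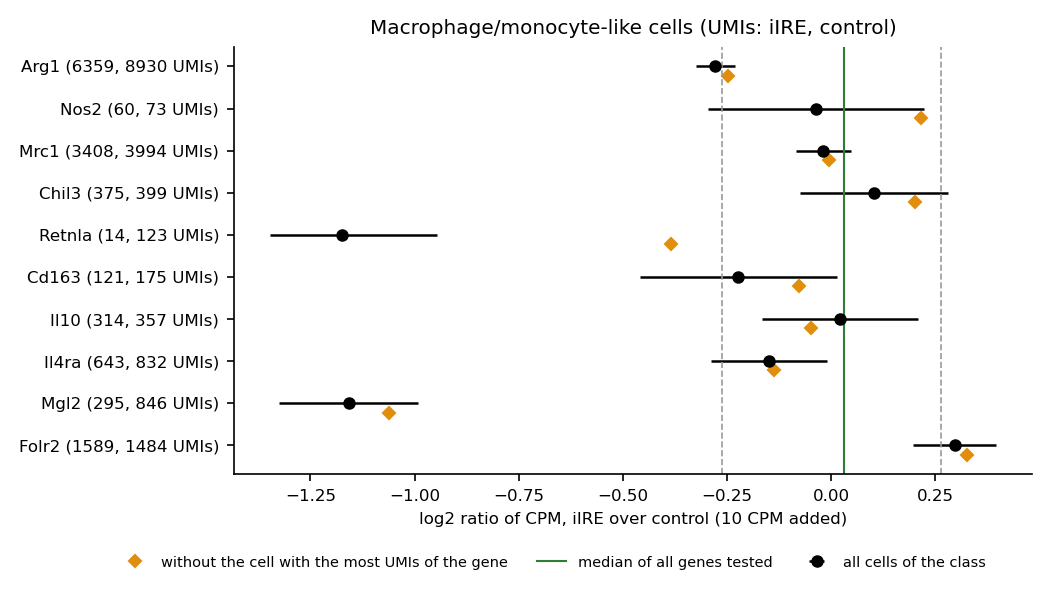
Log2 ratio of iIRE over control CPM (10 CPM added) for the 10 members in all macrophage/monocyte-like cells, as black points with 95% counting intervals, with the value without the cell richest in that gene as an orange diamond, the median of all genes as a green line and 1.2-fold as dashed lines. Retnla (-1.17) and Mgl2 (-1.16) lie lowest and Folr2 (0.30) highest, and Retnla moves to -0.38 without 1 cell.

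The members differed in where they lay among the subclusters. Of the 10 members, 8 were highest in the same subcluster in both libraries, whereas 36.3% of all genes tested were. The members were chosen with earlier results of these data known, so contrasts with all genes only describe them. Mrc1, Cd163, Il10, Il4ra and Folr2 were highest in the Lyve1-like cells in both libraries, where 4.04% of all genes were highest. Nos2 was highest in the Gpnmb-like cells (3.88% of all genes), Chil3 in the Ly6c2 monocyte-like cells and Mgl2 in the H2-Eb1/H2-Aa cells. Arg1 was highest in Gpnmb-like cells in the iIRE and in Saa3/Il6 cells in the control library, with overlapping intervals of this pair in each, and Retnla was too sparse to place. In 5 other clusterings the resolution or the cells kept differed, or the members took part in the clustering. Cd163 and Folr2 were highest in Lyve1-like cells in both libraries in all 5, and Mrc1 in 4. Chil3 was highest in Ly6c2 monocyte-like cells in 4, and Nos2 and Arg1 in Gpnmb-like cells in 4. The clustering in which the members took part is not independent of their values. Il10 and Il4ra were highest in Lyve1-like cells of both libraries in 0 of 5, so the place of Il10 and Il4ra depends on the clustering. Mgl2 was highest in a subcluster named H2-Eb1/H2-Aa in both libraries in 0 of 5. That name comes from leading genes and can change with the clustering, so this count cannot show whether the place of Mgl2 changed. In 4 of 5, Mgl2 was highest in 1 and the same subcluster of both libraries. These positions are a description, since cells of 1 library share their source.

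**Figure D2:**
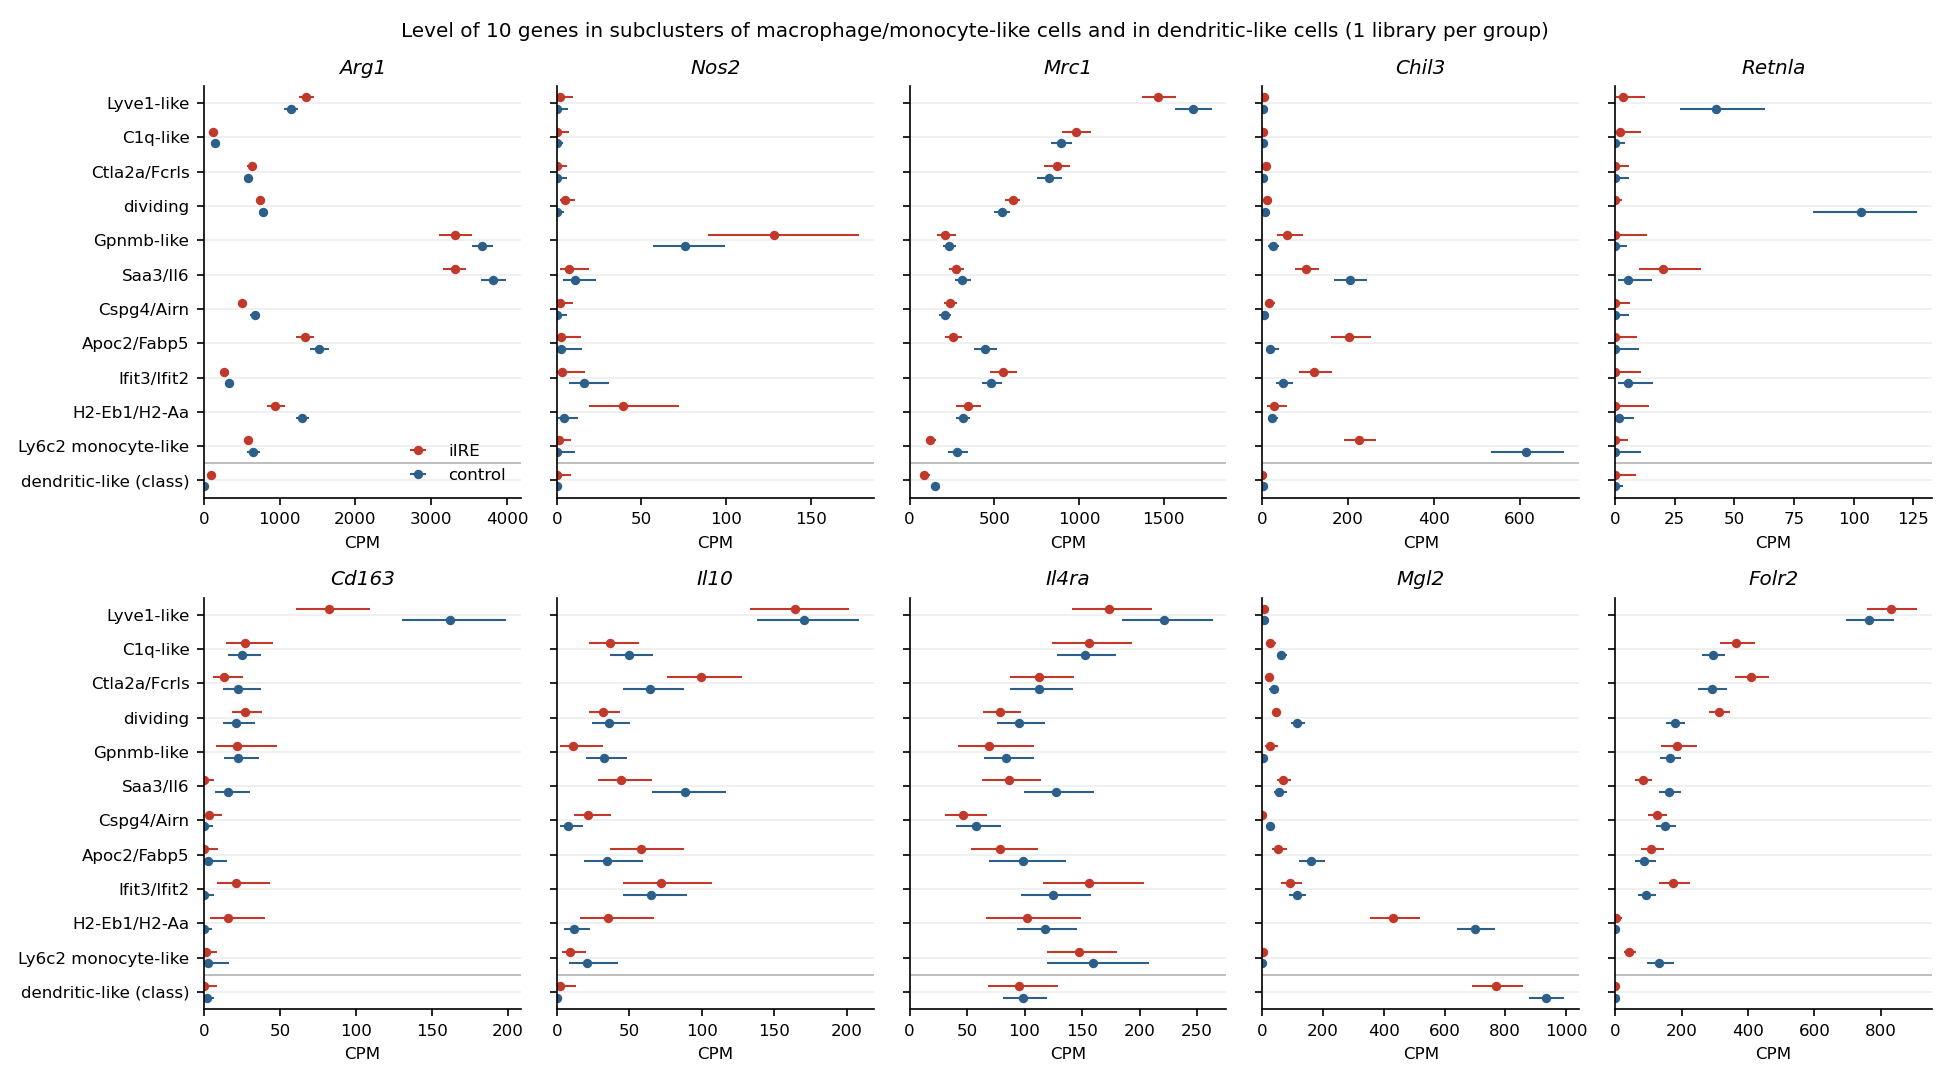
Level of each member in CPM (linear axis from 0, scaled for each gene) in the 11 macrophage/monocyte-like subclusters and in dendritic-like cells, with iIRE in red above control in blue and 95% counting intervals as bars. Arg1 is high in the Gpnmb-like and Saa3/Il6 cells, Mrc1 and Folr2 in the Lyve1-like cells, and, at this clustering, Chil3 in the Ly6c2 monocyte-like cells and Mgl2 in the H2-Eb1/H2-Aa cells.

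Arg1, the arginase that hydrolyzes arginine, was found in most macrophages. A UMI of it was present in 62.6% of iIRE cells (interval 59.4 to 65.7%) and 66.4% of control cells (63.3 to 69.3%) of the class. Thinned to 2000 UMIs per cell, which left 902 iIRE and 923 control cells, the shares were 49.0% and 52.7%, with overlapping intervals. In cancer-like cells, which should lack it, the thinned shares were 2.04% in the iIRE and 0.154% in the control library, and at full depth 7.51% and 1.91%, with a median of 17358.5 and 23808 UMIs per cell against 5811.5 and 6624 in the macrophage class. The iIRE cancer-like share came mostly from 1 cluster led by Lgals4 and Krt7, of 514 iIRE and 80 control cells, which held 150 of 167 Arg1 UMIs of the iIRE and 8 of 32 of the control cancer-like cells. Arg1 was in 24.9% of iIRE and 8.75% of control cells of that cluster at full depth. The median depth of that cluster was 6222.5 UMIs per iIRE cell and 4593.5 per control cell, unlike the pooled cancer-like median. In the largest cancer-like cluster, of 1188 iIRE and 1115 control cells, Arg1 was in 0.673% of iIRE and 1.35% of control cells at full depth. The share in macrophages of both libraries was above these values.

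The level of Arg1 spanned a wide range over the subclusters of each library. In the iIRE library it was 3319 CPM in the Gpnmb-like and 3310 CPM in the Saa3/Il6 cells, whose intervals overlapped. The Lyve1-like (1354 CPM) and Apoc2/Fabp5 cells (1333 CPM) came next and also overlapped. The H2-Eb1/H2-Aa cells were at 943 CPM, apart from both neighbors.

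Lower in the order, the dividing (737 CPM), Ctla2a/Fcrls (636 CPM), Ly6c2 monocyte-like (588 CPM) and Cspg4/Airn cells (505 CPM) each overlapped the next. The Ifit3/Ifit2 cells (269 CPM) and the C1q-like cells (125 CPM) lay below them and apart from each other. The C1q-like cells were thus the macrophages with the least Arg1, although C1q genes lead the class.

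In the control library the same subclusters stood at the top and the bottom. Saa3/Il6 cells had 3821 CPM and Gpnmb-like cells 3677 CPM, with overlapping intervals. Apoc2/Fabp5 cells followed with 1524 CPM, then H2-Eb1/H2-Aa cells with 1296 CPM and Lyve1-like cells with 1147 CPM, the last pair overlapping. The middle held the dividing (785 CPM), Cspg4/Airn (670 CPM), Ly6c2 monocyte-like (652 CPM) and Ctla2a/Fcrls cells (587 CPM), each overlapping the next. Ifit3/Ifit2 cells had 332 CPM and C1q-like cells 150 CPM. The top pair and the lowest pair were the same in both libraries, while the order in between differed. Lyve1-like cells lay above H2-Eb1/H2-Aa cells in the iIRE library, with intervals apart, and below them in the control library, with intervals that overlapped.

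Over the whole class Arg1 was at 1069 CPM in the iIRE library and 1298 CPM in the control library, a log2 ratio of -0.28 (interval -0.32 to -0.23). This small difference kept its direction under 10 alternative settings and stayed past 1.2-fold in only 2 of them. Within the subclusters Arg1 was past 1.2-fold, and lower, in 3 of 11, the H2-Eb1/H2-Aa (-0.45), Cspg4/Airn (-0.40) and Ifit3/Ifit2 cells (-0.29). Without the cell richest in Arg1 the value in Cspg4/Airn cells was -0.15, under 1.2-fold, and that in Ifit3/Ifit2 cells -0.82. The Gpnmb-like cells, with 907 of 6359 Arg1 UMIs in the iIRE and 2617 of 8930 in the control class, made up 5.85% of its iIRE and 11.6% of its control cells. With every subcluster given the same weight in both libraries the log2 ratio was -0.15.

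Nos2, the inducible nitric oxide synthase, was rare and lay mostly in the Gpnmb-like cells. It had 60 UMIs in 25 of 940 iIRE cells and 73 UMIs in 25 of 969 control cells of the class. Gpnmb-like cells held 35 of the iIRE and 54 of the control UMIs, in 12 and 17 cells. The level there was 128 CPM in the iIRE and 75.9 CPM in the control library, a log2 ratio of 0.68 (0.09 to 1.27). A single control cell held 23 UMIs, and without it the ratio was 1.33. Of the 25 cells with Nos2 in each library, 24 also had Arg1 UMIs, 591 in the iIRE and 886 in the control library. The C1q-like and Ctla2a/Fcrls cells had no Nos2 UMI in either library.

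After thinning, Arg1 was detected in 13 of 14 iIRE cells with Nos2 (92.9%) and in 48.3% of the other iIRE macrophages. In the control library these values were 11 of 12 (91.7%) and 52.1%. Within the Gpnmb-like cells this gap was not seen, on few cells. Arg1 was in 5 of 6 iIRE cells with Nos2 (83.3%) and 86.4% of those without, and in 9 of 9 control cells with Nos2 and 90.6% of those without. Over the whole class Nos2 was at 10.1 CPM in the iIRE and 10.6 CPM in the control library (log2 ratio -0.04).

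**Figure D3:**
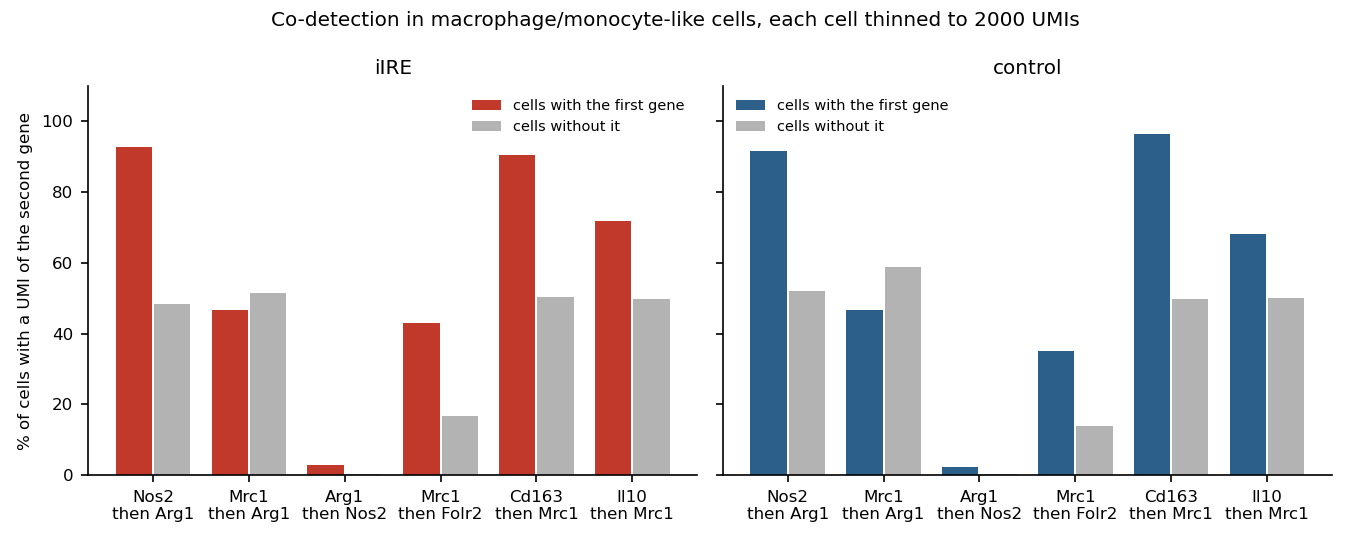
Percentage of macrophage/monocyte-like cells with a UMI of the second gene named, among cells with the first gene (colored bars) and cells without it (grey bars), after thinning to 2000 UMIs per cell, in the iIRE (left) and the control library (right). Arg1 was found in 92.9% of iIRE and 91.7% of control cells with Nos2, and Folr2 in 42.9% of iIRE and 35.1% of control cells with Mrc1.

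Mrc1, the mannose receptor CD206 that takes up glycoproteins, was as widespread as Arg1 and had another order. It was detected in 69.8% of iIRE and 71.9% of control cells of the class, and in 51.2% of both after thinning, against 3.54% of iIRE and 2.86% of control cancer-like cells. Lyve1-like cells led with 1468 CPM in the iIRE and 1673 CPM in the control library. C1q-like cells, lowest for Arg1, came next with 981 CPM in iIRE and 894 CPM in control. They overlapped the Ctla2a/Fcrls cells, with 868 CPM in iIRE and 824 CPM in control.

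The dividing cells had 608 CPM of Mrc1 in the iIRE and 544 CPM in the control library, and the Ifit3/Ifit2 cells 551 CPM in iIRE and 483 CPM in control. The remaining 6 subclusters lay between 123 and 344 CPM in the iIRE library and between 207 and 443 CPM in the control library. Among these were the Gpnmb-like cells, highest for Arg1 in the iIRE library, with 212 CPM of Mrc1 in iIRE and 233 CPM in control. Arg1 was found in 46.8% of iIRE cells with Mrc1 and 51.4% of iIRE cells without it. In the control library the shares were 46.7% and 58.9%. Arg1 and Mrc1 thus had their highest levels in different subclusters.

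Over the class Mrc1 was at 573 CPM in the iIRE and 581 CPM in the control library (log2 ratio -0.02). It was lower in 2 of 11 subclusters. In Apoc2/Fabp5 cells it had 256 CPM in the iIRE and 443 CPM in the control library (-0.77), and -0.66 without the richest cell. In Ly6c2 monocyte-like cells it had 123 CPM in the iIRE and 280 CPM in the control library (-1.12), where 54 of 95 control UMIs came from 1 cell, and without that cell the value was -0.09.

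Folr2, a folate receptor of resident macrophages, followed Mrc1 at the top of its order. It was highest in Lyve1-like cells, with 830 CPM in the iIRE and 765 CPM in the control library. Ctla2a/Fcrls cells had 410 CPM in iIRE and 291 CPM in control, and C1q-like cells 365 CPM in iIRE and 295 CPM in control. H2-Eb1/H2-Aa cells were nearly empty of it, with 1 UMI in the iIRE and 0 in the control library. After thinning, Folr2 was found in 42.9% of iIRE cells with Mrc1 and 16.6% of those without, and in the control library in 35.1% and 14.0%.

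Folr2 was the member called higher in the iIRE library, with 267 CPM in iIRE and 216 CPM in control macrophages (log2 ratio 0.30, interval 0.20 to 0.39). A UMI was present in 271 of 902 iIRE and 229 of 923 control cells after thinning, against 0.166% of iIRE and 0.309% of control cancer-like cells. The call held under 8 of 10 alternative settings, with values of 0.21 to 0.35. It was higher in 5 of 10 subclusters with enough UMIs, the Ifit3/Ifit2 (0.82), dividing (0.77), Ctla2a/Fcrls (0.48), C1q-like (0.30) and Apoc2/Fabp5 cells (0.28). The counting interval of the last included 0, and the share of all genes past 1.2-fold in each subcluster is not given here. It was lower in the Saa3/Il6 cells, with 82.6 CPM in iIRE and 163 CPM in control (-0.90). The Ly6c2 monocyte-like value of -1.44 rested on 1 control cell with 34 of 45 UMIs and was 0.21 without it.

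Cd163, the scavenger receptor for hemoglobin bound to haptoglobin, was sparse in macrophages. It had 121 UMIs in 57 iIRE cells and 175 UMIs in 75 control cells, and the Lyve1-like cells held 47 of these in iIRE and 92 in control. Their level was 82.3 CPM in the iIRE and 162 CPM in the control library (-0.90, and -0.52 without the richest cell). After thinning, Mrc1 was found in 90.5% of iIRE and 96.3% of control cells with Cd163, against 50.3% of iIRE and 49.9% of control cells without it. Over the class Cd163 was at 20.3 CPM in iIRE and 25.4 CPM in control (-0.22, interval -0.46 to 0.01).

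Il10 had 165 CPM in iIRE and 171 CPM in control Lyve1-like cells, its highest level at this clustering. At a coarser clustering (resolution 0.5) it was highest in Gpnmb-like cells instead, with 128 CPM against 67.1 CPM in Lyve1-like cells of the iIRE library and 102 CPM against 62.2 CPM in those of the control library. The whole class had 314 UMIs in 109 iIRE cells and 357 UMIs in 119 control cells, or 52.8 CPM in iIRE and 51.9 CPM in control (0.02). Ly6c2 monocyte-like cells were low, with 6 UMIs in the iIRE and 7 in the control library. Il10 was past 1.2-fold in 3 of 6 subclusters, higher in Ctla2a/Fcrls cells with 99.7 CPM in iIRE and 64.4 CPM in control (0.56) and lower in Saa3/Il6 cells with 44.1 CPM in iIRE and 88.5 CPM in control (-0.87). Without the richest cell these became 0.13 and -0.44. It was also lower in C1q-like cells (-0.36, interval -1.02 to 0.29).

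Il4ra, the receptor chain that binds interleukin 4, was the member spread most evenly. Its lowest subcluster, the Cspg4/Airn cells, had 46.8 CPM in the iIRE and 57.9 CPM in the control library. Its highest at this clustering, the Lyve1-like cells, had 173 CPM in the iIRE and 222 CPM in the control library, and the intervals of all neighbors in the order overlapped. Over the class it was at 108 CPM in iIRE and 121 CPM in control (-0.15). Among the 11 subclusters it was higher in 1 and lower in 3, and the counting interval excluded 0 only in Saa3/Il6 cells, with 86.3 CPM in iIRE and 127 CPM in control (-0.51).

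**Figure D4:**
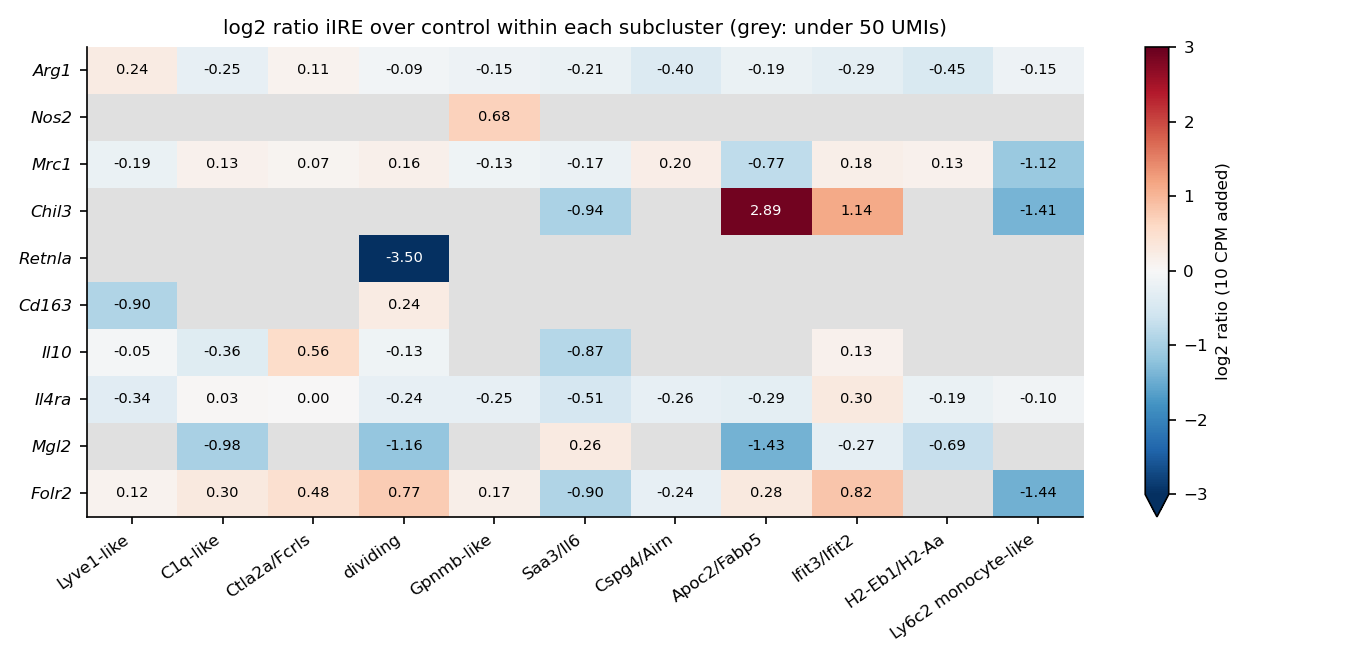
Log2 ratio of iIRE over control CPM (10 CPM added) for each member (rows) in each subcluster (columns) with at least 50 UMIs, as a color scale ending at 3 either way, with the value written in each field and fields under 50 UMIs grey. Mgl2 is negative in 5 of 6 subclusters, and Chil3 is positive in Apoc2/Fabp5 cells (2.89) and negative in Ly6c2 monocyte-like cells (-1.41).

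Chil3 encodes a chitinase-like protein also known as Ym1. It was highest in Ly6c2 monocyte-like cells, with 225 CPM (148 UMIs in 47 of 117 cells) in the iIRE and 614 CPM (208 UMIs in 29 of 58 cells) in the control library. Its log2 ratio there was -1.41 (-1.71 to -1.10), and -1.19 without the cell with the most UMIs. The C1q-like cells held 1 Chil3 UMI in either library, and the Lyve1-like cells held 2 in iIRE and 1 in control.

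The opposite was seen in the Apoc2/Fabp5 cells. There Chil3 had 80 UMIs in 25 of 85 iIRE cells and 7 UMIs in 4 of 63 control cells, or 203 CPM in iIRE and 18.7 CPM in control. The log2 ratio was 2.89 (2.06 to 3.66), and 2.71 without the richest cell. Ifit3/Ifit2 cells were also higher, with 120 CPM in iIRE and 48.7 CPM in control (1.14), whereas Saa3/Il6 cells were lower with 101 CPM in iIRE and 204 CPM in control (-0.94). Over the class Chil3 had 63.0 CPM in iIRE and 58.0 CPM in control (0.10). Ly6c2 monocyte-like cells, where it was highest, made up 12.4% of the iIRE and 5.99% of the control class, and with equal weights of subclusters the class ratio was -0.32. Detection after thinning was 7.76% of iIRE and 5.53% of control cells, with overlapping intervals, against 0.166% of iIRE and 0.0772% of control cancer-like cells.

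Chil3 is also known from immature neutrophils, so their markers were counted in the same cells. Of 9 neutrophil markers, 4 had UMIs in Ly6c2 monocyte-like cells of each library, summing to 367 CPM in the iIRE and 325 CPM in the control library. In Apoc2/Fabp5 cells 4 of 9 had UMIs, with a sum of 122 CPM in iIRE and 56.0 CPM in control. The defining markers Ly6g, Camp and Ngp were at 0 in both subclusters of both libraries. Neutrophil-like cells had no Chil3 UMI in the iIRE library and 49 in 2 cells of the control library, and 1 of these cells held all 330 Camp UMIs of the pair. A mixed cluster led by Ngp and Camp held 4 Chil3 UMIs in 77 iIRE cells and 333 in 590 control cells.

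Retnla, which encodes the secreted protein RELM alpha, was nearly absent although it is a classical interleukin 4 target. It had 14 UMIs in 3 of 940 iIRE cells and 123 UMIs in 8 of 969 control cells, of which 81 lay in 1 dividing control cell. The class ratio of -1.17 became -0.38 without that cell. Cancer-like cells had 0 Retnla UMIs in both libraries. All 11 cells with Retnla had C1qa UMIs, 160 in the iIRE and 503 in the control library.

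Mgl2 encodes a galactose-binding lectin of macrophages and dendritic cells. The dendritic-like cluster had 770 CPM in the iIRE (331 UMIs in 29 of 54 cells) and 935 CPM in the control library (1038 UMIs in 69 of 136 cells). Among macrophages it was highest, at this clustering, in the H2-Eb1/H2-Aa cells, named for class II antigen presentation genes, with 430 CPM in iIRE and 701 CPM in control. These cells held 110 of 295 Mgl2 UMIs of the iIRE class and 484 of 846 of the control class. Ly6c2 monocyte-like cells had 1 UMI in the iIRE and 0 in the control library.

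Mgl2 was lower in the iIRE library in most subclusters that held it. Over the class it had 49.6 CPM in the iIRE and 123 CPM in the control library, a log2 ratio of -1.16 (-1.32 to -0.99) that was -1.06 without the richest cell. Detection after thinning was 5.99% of iIRE (interval 4.53 to 7.74%) and 10.2% of control cells (8.31 to 12.3%), against 0.11% of iIRE and 0% of control cancer-like cells. The call held under all 10 alternative settings.

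Mgl2 was lower in 5 of 6 subclusters with enough UMIs. These were the Apoc2/Fabp5 (-1.43), dividing (-1.16), C1q-like (-0.98), H2-Eb1/H2-Aa (-0.69) and Ifit3/Ifit2 cells (-0.27, interval -0.87 to 0.32). The share of all genes past 1.2-fold in each of these subclusters is not given here. The dividing cells moved to -0.05 without a control cell with 61 UMIs. The H2-Eb1/H2-Aa cells, where Mgl2 was highest, made up 3.72% of iIRE and 8.77% of control macrophages and monocytes, and with equal weights of subclusters the class ratio was -0.66. Among cells with Mgl2 after thinning, Arg1 was found in 68.5% in the iIRE and 43.6% in the control library, against 47.8% of iIRE and 53.7% of control cells without it.

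The levels of members outside the macrophages were set beside those of C1q genes and Lyz2, which lead the macrophage class. Whether UMIs of these genes in other cells came from free RNA or from joined or mixed cells was not tested. In cancer-like cells of the iIRE library C1qa, C1qb, C1qc and Lyz2 stood at 0.353 to 0.375% of their level in the class, Arg1 at 0.484% and Folr2 at 0.279%. In the control library these macrophage genes stood at 0.0476 to 0.0723%, Arg1 at 0.0786% and Folr2 at 0.0887%. Csf1r, which also leads the class, stood at 0.874% in iIRE and 0.068% in control cancer-like cells. These pooled values mix unlike clusters. The cluster led by Lgals4 and Krt7 held 433 of 494 C1qa, 150 of 167 Arg1 and 20 of 24 Folr2 UMIs of the iIRE cancer-like cells, and there C1qa stood at 3.18% of its macrophage level and Arg1 at 4.20% in the iIRE library, and at 1.04% and 1.52% in the control library. Csf1r stood at 7.88% in iIRE and 2.45% in control cells of that cluster. In the largest cancer-like cluster C1qa, C1qb, C1qc and Lyz2 stood at 0.0341 to 0.0657% in iIRE and 0.032 to 0.0556% in control. Arg1 stood at 0.0313% in iIRE and 0.0404% in control there, and Folr2 at 0.0558% in iIRE and 0.0324% in control.

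Mrc1 stood above these genes in cancer-like cells. In the largest cluster it was at 2.36% of its macrophage level in iIRE and 2.20% in control, in 16.2% of iIRE and 14.7% of control cells. In the cluster led by Lgals4 and Krt7 it stood at 5.60% in iIRE and 5.09% in control. In another cluster, of 122 iIRE and 114 control cells led by Lgals4 and Lgals2, Mrc1 stood at 6.42% in iIRE and 8.58% in control. There it was found in 35.2% of iIRE and 40.4% of control cells. Over all cancer-like cells it had 546 UMIs and 16.9 CPM in iIRE and 495 UMIs and 15.8 CPM in control cancer-like cells, which is 2.95% in iIRE and 2.72% in control of its level in macrophages. Cells with at least 3 Mrc1 UMIs numbered 47 in the iIRE and 53 in the control library. All of them had UMIs of the epithelial keratin gene Krt18, and C1qa was found in 2 of the iIRE and 3 of the control cells. In fibroblast-like cells Mrc1 was at 0.103% of the macrophage level in iIRE and 0.0998% in control.

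Cd163 in turn was found in fibroblast-like cells. It had 142 UMIs in 113 of 1011 iIRE cells and 124 UMIs in 97 of 913 control cells, or 8.37 CPM in iIRE and 7.18 CPM in control. These are 41.2% of the level in macrophages in iIRE and 28.2% in control. C1qa stood at 0.0376% in iIRE and 0.0543% in control there. All 142 iIRE and 122 of the control UMIs lay in 1 cluster, led by Mest and Lum. The other fibroblast-like cluster, led by Postn and Itm2a, held 0 iIRE and 2 control UMIs. Among the 25 iIRE and 22 control cells with at least 2 Cd163 UMIs, all had Col1a1 UMIs and none had a C1qa UMI. Krt18 UMIs were found in 11 of these iIRE and 14 of these control cells. Whether these are stromal cells or tumor cells was not tested. Whether these UMIs come from a Cd163 transcript of the cells or from another source was not tested.

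Il4ra was widely expressed, with 47.2 CPM in iIRE and 45.6 CPM in control cancer-like cells and 27.2 CPM in iIRE and 28.9 CPM in control fibroblast-like cells. Neutrophil-like cells had 227 CPM in the iIRE and 242 CPM in the control library. Nos2 was found in 3 of 16 iIRE and 8 of 22 control endothelial-like cells, at 36.8 CPM in iIRE and 39.9 CPM in control, without an Arg1 or C1qa UMI in these cells. In control fibroblast-like cells it had 51 UMIs in 3 cells, 45 of them in 1 cell. Dendritic-like cells had Arg1 UMIs in 3 of 54 iIRE cells (40 UMIs) and 2 of 136 control cells (7 UMIs).

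Arg1 was also seen in osteoclast-like cells, with 144 CPM in the iIRE and 189 CPM in the control library, and Folr2 with 39.2 CPM in iIRE and 23.4 CPM in control. In acinar-like cells Arg1 had 39 UMIs in 25 of 72 iIRE cells and 10 UMIs in 9 of 87 control cells. These are 10.3% of the macrophage level in iIRE and 1.15% in control, while C1qa, C1qb and C1qc stood at 0.418 to 1.31% in iIRE and 2.70 to 2.90% in control acinar-like cells. The 25 iIRE cells with Arg1 also held 10 C1qa UMIs in 8 cells and 23 UMIs of the neutrophil gene S100a8 in 16 cells, and the part of other cells' RNA in this result was not tested.

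**Figure D5:**
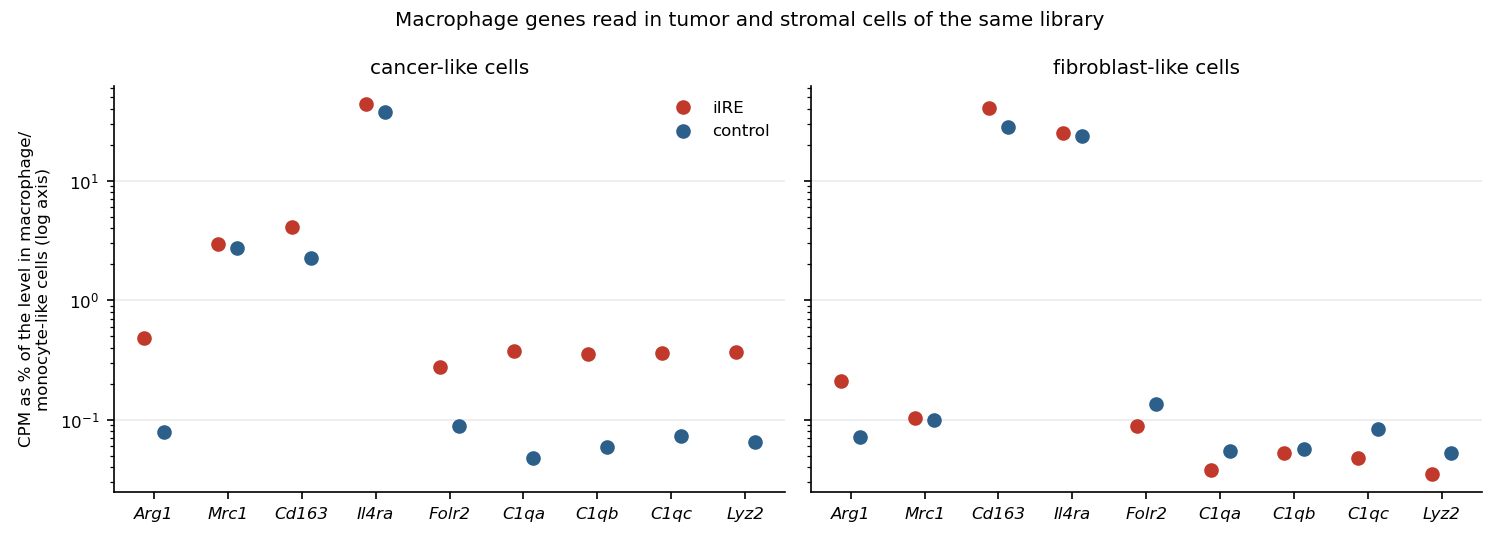
Level of 5 members and of C1qa, C1qb, C1qc and Lyz2 in cancer-like and fibroblast-like cells, as a percentage of the level in macrophages and monocytes (log axis), for the iIRE and the control library. Mrc1 in cancer-like cells (2.95% in iIRE and 2.72% in control) and Cd163 in fibroblast-like cells (41.2% and 28.2%) lie above C1qa in the same cells.

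The genes most like Arg1 in their pattern were Ecm1 (Pearson r 0.89), Msr1 (0.87), Spryd7 (0.84), Spp1 (0.84) and Sgk1 (0.83). This is r of log2 CPM with 10 CPM added, over 28 sums of cells (subclusters and myeloid classes in each library, which share libraries and depth), among 5268 genes. Those most like Mrc1 were Man1a (0.95), Hdac9 (0.95), Hivep3 (0.94), Ccl2 (0.92) and P2ry6 (0.92). Chil3 had weaker companions, led by Thbs1 (0.79), Klra2 (0.77) and Trim25 (0.77).

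Lists of related genes are read against the share over all 9741 genes, 7.38% higher and 4% lower, and a share near these is not a result about a list. Of 13 genes of interleukin 4 and interleukin 13 receptors and signaling, inhibitors among them, 12 had enough UMIs. None was past 1.2-fold, with a median log2 ratio of 0.00. Stat6 itself was at 66.1 CPM in iIRE and 63.2 CPM in control macrophages. Il13ra1, a partner chain of Il4ra, was highest in Ly6c2 monocyte-like cells, with 71.6 CPM in iIRE and 82.6 CPM in control.

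Of 24 other interleukin 4-responsive genes, 19 had enough UMIs, 1 was higher and 5 were lower (median -0.02), against 7.38% and 4% of all genes. Alox15, a lipoxygenase, was at 5.71 CPM in iIRE and 22.7 CPM in control macrophages (-1.06) and was highest in Saa3/Il6 cells in both libraries. The chemokine genes Ccl22 (-0.54) and Ccl24 (-0.52), the ribonuclease gene Ear2 (-0.64) and the factor gene Klf4 (-0.28) were the others, and the adhesion gene Cdh1 was higher (0.29). Ear2 was highest in the H2-Eb1/H2-Aa cells, as Mgl2 was. Of 26 classical activation genes, 22 had enough UMIs, 3 were higher and 5 lower (median -0.06), against the same 7.38% and 4%. The higher ones were Cd38 (0.64), Gbp5 (0.37) and Gbp2 (0.31), and the lower ones were Ccl5 (-0.90), Marco (-0.79), Il1a (-0.59), Acod1 (-0.54) and Socs3 (-0.50).

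Of 25 genes of arginine and polyamine metabolism, 21 had enough UMIs, 2 were higher and 2 lower (median 0.06), against the same 7.38% and 4%. Slc7a2, an arginine transporter, was at 64.2 CPM in iIRE and 87.6 CPM in control (-0.40) and was highest in Saa3/Il6 cells, which were also high in Arg1. Sat1, which acetylates polyamines, was lower (-0.34) and highest in Gpnmb-like cells, and Amd1 (0.30) and Sms (0.28), which serve polyamine synthesis, were higher. Of 13 genes for factors known to bind at Arg1, all had enough UMIs and Irf8 (-0.30) and Klf4 were lower, against 4% of all genes.

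Among 12 genes of the interleukin 10 receptor and its response, 11 had enough UMIs. Of these, 2 were lower, Hmox1 and Socs3, against 4% of all genes. Hmox1, the heme-degrading oxygenase, was at 367 CPM in iIRE and 849 CPM in control macrophages (-1.19) and was highest in Gpnmb-like cells, with 3245 CPM in iIRE and 5062 CPM in control. Of 12 genes for Il10-inducing factors, Maf was higher (0.44) and Dusp1 lower (-0.48), against 7.38% and 4% of all genes. At this clustering Maf was highest in Lyve1-like cells, as was Il10, whose place depends on the clustering. Of 22 scavenger and lectin receptor genes, 17 had enough UMIs, Siglec1 (0.35) and Stab1 (0.34) were higher and Marco (-0.79) and Cd5l (-0.75) lower. Here too 7.38% of all genes were higher and 4% lower. Klf4, Socs3 and Marco each belong to another list as well. Siglec1 and Stab1 were highest in Lyve1-like cells, the subcluster that led for Mrc1 and Folr2. Of 13 paralogs of the members, only 2 had enough UMIs, Arg2 and Clec10a, and neither was past 1.2-fold.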

How the data were processed

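Single cells of 1 iIRE and 1 control library were analyzed from the UMI counts per gene and cell deposited by the authors, which are not normalized. Per the file headers they were made with Cell Ranger 7.0.1; the methods name another version, and the submitters' processing notes name STAR and mm10. The 5′ kit keeps strand. Cells had at least 1000 UMIs, 200 genes and at most 5% mitochondrial UMIs. Doublets were marked by their likeness to simulated sums (0.8% per 1000 cells) and removed, 15.1% of iIRE and 14.2% of control cells. Cells were clustered (scanpy 1.11.5, Leiden resolution 1) on 2000 variable genes without the members and named from markers; the rule that a cluster's leading genes must fit its name was added after clusters were seen. UMIs were summed per population and library. Ratios add 10 CPM, genes had at least 50 UMIs, and calls begin at 1.2-fold. No test between groups was run, since cells are not replicates. Intervals are exact Poisson, binomial or Clopper-Pearson. Code was tested on simulated data. The members and gene lists were chosen with earlier results of these data known. All 10 members are named, and of each list genes past 1.2-fold or of high level may be. Alternatives were clusterings, filters, TMM factors (edgeR 4.0.16), added CPM and weights.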

Additional observations from a re-analysis of the deposited data

Results flagged for a closer look

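Chil3 ran in opposite directions in subclusters of the same libraries. Its log2 ratio of iIRE over control was 2.89 in Apoc2/Fabp5 cells (2.71 without the richest cell) and -1.41 in Ly6c2 monocyte-like cells (-1.19 without it). The difference between the subclusters was not tested, because each group is 1 library.

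Il10 was higher in Ctla2a/Fcrls cells of the iIRE library (0.56) and lower in its Saa3/Il6 cells (-0.87). Without the richest cell these were 0.13 and -0.44, and this difference was not tested either.

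Folr2 was higher in Ifit3/Ifit2 cells (0.82) and lower in Ly6c2 monocyte-like cells (-1.44). The lower value rested on 1 control cell with 34 UMIs and was 0.21 without it. This difference was not tested.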

How the results depend on the processing

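No paired analysis was possible because each group is 1 library. Over 10 alternatives, of which equal subcluster weights and leaving out the richest cell were added after seeing the data, the class ratio kept its direction for Arg1, Retnla, Cd163, Il4ra, Mgl2 and Folr2. Arg1 (-0.28) was -0.19 with no doublets removed, -0.21 with up to 10% mitochondrial UMIs, -0.22 at Leiden resolutions 0.5 and 2, -0.19 as mean CPM per cell and -0.15 with equal subcluster weights. Retnla (-1.17) was -1.52 with no doublets removed, -0.68 as mean per cell, -2.49 with 1 CPM added and -0.38 without the richest cell. With equal weights Nos2 was 0.41, Chil3 -0.32 and Mgl2 -0.66. The causes were not tested. Some subclusters were not found again at other settings, and Il10 and Il4ra kept their highest subcluster in both libraries in 0 of 5 other clusterings. Mgl2 was highest in a subcluster named H2-Eb1/H2-Aa in both libraries in 0 of 5, a name that can change with the leading genes. In 4 of 5, Mgl2 was highest in 1 and the same subcluster of both libraries. Reversed values were -0.33 for Il10 in Lyve1-like over Ly6c2 monocyte-like control cells at resolution 0.5, and -1.65 in iIRE and -3.12 in control for Mgl2 in dendritic-like cells over the class at resolution 2, where a dendritic-like subcluster lay inside the class. Between libraries, reversed values were 0.11 for Il10 in C1q-like and 0.079 in Saa3/Il6 cells with 10% mitochondrial UMIs, 0.017 for Il4ra in Lyve1-like cells at resolution 0.5, and 0.95 for Mrc1 in Ly6c2 monocyte-like cells at resolution 2. Folr2 in Ly6c2 monocyte-like cells was 0.21 without the richest cell, 0.078 with no doublets removed, 0.91 with 10% mitochondrial UMIs, 0.37 at resolution 2 and 0.051 with the members used in clustering. Genes past 1.2-fold numbered 1109 (719 higher, 390 lower), against 715 (431 and 284) with no doublets removed, 2492 (1571 and 921) with 1 CPM added and 500 higher and 518 lower with TMM factors, which moved the median of all genes by -0.03. The class values of Nos2 and Retnla rest on few cells, at most 25 macrophages and monocytes of a library.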
